A study of Mus musculus with 2 samples.

Results

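The 10 proliferation genes followed here, whose RNA marks dividing cells, were read through every cell of a pair of mouse spleen libraries. They are Mki67, Top2a, Birc5, Cdk1, Ccnb2, Stmn1, Pcna, Mcm5, Tyms and Rrm2. They were chosen by symbol, and all 10 of the 10 were listed in both deposited tables, which together list 30457 genes. The spleens were those of female C57BL/6J mice with Lewis lung carcinoma, a mouse tumour line grown under the skin. Tumour cells were injected at 10 weeks of age, and the mice were given 200 µg of anti-CD4 antibody per dose on days 5 and 9, before the spleens were taken on day 12. Cells of 3 spleens were pooled, red cells were lysed, and the pool was frozen and thawed, so the cells of both libraries share the tumour, the antibody and the freezing, and animals cannot be told apart. On 1 BD Rhapsody cartridge, a nanowell device in which each cell meets a barcoded bead, 2000 cells were loaded, and the beads were then divided between TAS-Seq, which amplifies the cDNA from a cytidine tail added by terminal transferase, and BD WTA, the whole-transcriptome kit of the manufacturer. The question addressed here is how many cells of the spleen pool, and of which class, carry several of these RNAs, and whether the amplification methods show them alike.

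A cell that divides first licenses and copies its DNA and then condenses, aligns and separates its chromosomes, and these phases use different gene products. Genes for replication are transcribed under E2F factors around the entry into S phase, while many genes for mitosis carry a CHR element with a CCAAT box upstream and are held down in resting cells by the DREAM complex. Most lymphocytes in a spleen rest, and those that have met antigen divide.

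The 10 genes are protein-coding and lie on 9 chromosomes of the mouse build GRCm38. Mki67 lies at chr7:135689784-135716361 (minus strand), Top2a at chr11:98992943-99024189 (minus), Birc5 at chr11:117849251-117855743 (plus), Cdk1 at chr10:69335146-69352938 (minus) and Ccnb2 at chr9:70407692-70421547 (minus). Stmn1 lies at chr4:134468320-134473843 (plus), Pcna at chr2:132249162-132253314 (minus), Mcm5 at chr8:75109569-75128439 (plus), Tyms at chr5:30058202-30073617 (minus) and Rrm2 at chr12:24708241-24714146 (plus). RefSeq promoter windows of GRCm38.p6, running from 250 bases before to 50 bases after the annotated start, were at hand for 9 of the 10 genes, Stmn1 being the exception. The windows of 3 mitosis genes and of Mcm5 are printed because they show the letters searched in different combinations. Capitals mark, on either strand, the CCAAT box, the CHR letters TTTGAA and the E2F letters TTTCCCGC, TTTGGCGC, TTTCGCGC and TTTGCCGC.
Cdk1, chr10:69352863-69353162, minus strand: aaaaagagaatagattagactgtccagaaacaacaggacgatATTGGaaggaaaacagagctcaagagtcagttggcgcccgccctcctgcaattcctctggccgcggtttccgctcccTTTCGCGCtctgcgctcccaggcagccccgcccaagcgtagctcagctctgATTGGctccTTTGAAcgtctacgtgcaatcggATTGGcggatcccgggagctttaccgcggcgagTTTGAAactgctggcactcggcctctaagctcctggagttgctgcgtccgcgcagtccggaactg
Ccnb2, chr9:70421505-70421804, minus strand: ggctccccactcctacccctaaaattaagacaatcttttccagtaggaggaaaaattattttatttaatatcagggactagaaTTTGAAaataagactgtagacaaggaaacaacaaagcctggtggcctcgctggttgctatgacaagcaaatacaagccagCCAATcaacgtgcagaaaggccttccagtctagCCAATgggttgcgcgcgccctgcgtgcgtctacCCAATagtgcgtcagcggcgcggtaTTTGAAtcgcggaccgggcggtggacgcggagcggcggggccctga
Top2a, chr11:99024140-99024439, minus strand: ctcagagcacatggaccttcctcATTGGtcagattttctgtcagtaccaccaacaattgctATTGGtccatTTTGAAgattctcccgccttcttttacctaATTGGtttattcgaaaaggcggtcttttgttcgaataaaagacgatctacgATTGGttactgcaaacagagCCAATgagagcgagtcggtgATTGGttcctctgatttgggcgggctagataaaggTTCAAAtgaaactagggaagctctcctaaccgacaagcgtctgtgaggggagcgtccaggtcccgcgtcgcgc
Mcm5, chr8:75109259-75109558, plus strand: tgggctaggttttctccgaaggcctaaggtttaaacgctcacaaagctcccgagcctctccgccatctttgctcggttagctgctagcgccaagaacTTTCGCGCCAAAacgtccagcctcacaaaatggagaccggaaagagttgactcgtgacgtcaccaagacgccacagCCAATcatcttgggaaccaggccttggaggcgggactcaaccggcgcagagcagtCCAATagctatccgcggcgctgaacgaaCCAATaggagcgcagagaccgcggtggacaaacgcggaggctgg

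CCAAT stood in the windows of 7 of the 9 genes, against 37.4% of all 32851 windows. TTTGAA was present in 4 of the 9, against 17.9% of all windows, and these were Mki67, Top2a, Cdk1 and Ccnb2. Birc5, the fifth mitosis gene, did not hold it. With TTTAAA counted as well, 7 of the 9 windows matched, those of Birc5, Mcm5 and Rrm2 among them, against 27.6% of all windows, so these letters do not divide the mitosis from the replication genes. The E2F letters were found in Cdk1 and Mcm5, 2 of the 9, against 2.27% of all windows, and in Mcm5 matches on both strands overlap. In the Cdk1 window TTTGAA begins 15 bases before the RefSeq start, and in that of Ccnb2 it begins at base 5 after it. The gene bounds printed above come from a different annotation. By those bounds this Cdk1 match lies inside the gene and this Ccnb2 match runs across its start, so the side of the start is uncertain. A match of letters is a description and not a shown binding site.

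The deposited values are reads per gene and cell barcode, counted by the authors without molecular identifiers, so every interval given here covers counting error only. After cells with under 500 detected genes or over 25% mitochondrial reads were left out, 732 TAS-Seq and 708 BD WTA cells remained, with medians of 46557 and 38426 reads and of 3038 and 1678 detected genes per cell. No barcode was shared by the libraries (0 of 736 and 716). Since there is 1 library per method and cells are not replicates of a method, no difference between methods has a replicate check and none was tested.

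Few cells carried several of the genes. With at least 5 reads required for a gene to count, 3 or more of the 10 genes occurred together in 13 of the 732 cells from TAS-Seq (1.78%, with an exact 95% binomial interval from 0.949 to 3.02%) and in 14 of the 708 from BD WTA (1.98%, 1.08 to 3.30%). The intervals overlap over nearly their whole length. Most other cells had none of the genes, namely 470 TAS-Seq and 493 BD WTA cells, or exactly 1, namely 223 and 171 cells, and 26 and 30 cells had 2. The cells with several genes were themselves spread widely, since 4 TAS-Seq and 3 BD WTA cells had 3 or 4 of the genes, 2 and 3 had 5 or 6, and 7 and 8 had at least 7. In each library 1 cell had all 10.

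**Figure D1:**
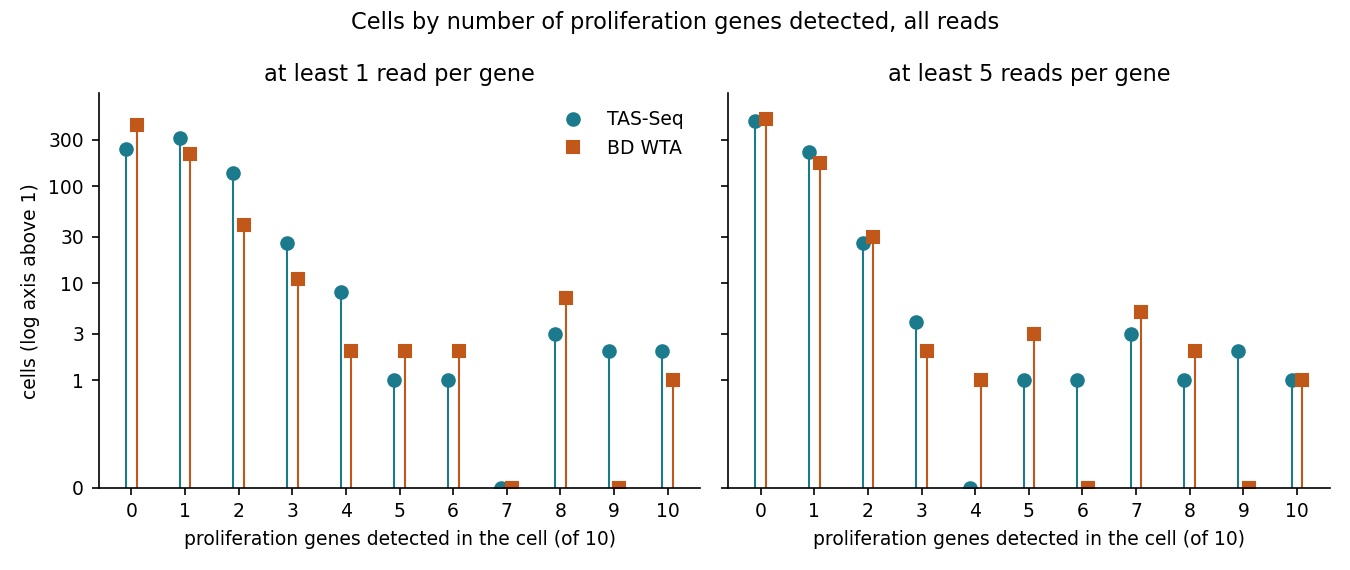
Number of cells (log axis above 1) by how many of the 10 proliferation genes were detected in the cell, at a minimum of 1 read (left) and of 5 reads (right), in TAS-Seq (circles, 732 cells) and BD WTA (squares, 708 cells). At 5 reads the counts of both libraries drop to 4 and 2 cells at 3 genes, and 7 and 8 cells have 7 or more genes. At 1 read TAS-Seq has more cells with 1 to 4 genes.

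The minimum of reads set the count far more in TAS-Seq than in BD WTA. At 1 read per gene, 43 TAS-Seq cells (5.87%, 4.28 to 7.83%) and 25 BD WTA cells (3.53%, 2.30 to 5.17%) had at least 3 of the genes. All 13 and all 14 cells that passed at 5 reads were among them, and 30 TAS-Seq and 11 BD WTA cells passed at 1 read alone. In those 30 TAS-Seq cells the 10 genes together had a median of 17 reads per cell, and 70.8% of the nonzero values were of 1 to 4 reads. In the 11 BD WTA cells the median was 49 reads and the share 45.7%. When every cell was thinned to 20000 reads, which leaves out 25 TAS-Seq and 63 BD WTA cells of lower depth, 17 of the 707 cells from TAS-Seq (2.405%, 1.41 to 3.82%) and 17 of the 645 from BD WTA (2.64%, 1.54 to 4.19%) passed at 1 read, and 7 (0.990%, 0.399 to 2.03%) and 9 (1.40%, 0.640 to 2.63%) at 5 reads. At equal depth the larger TAS-Seq share at 1 read was therefore not seen.

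Most reads of each of the 5 genes of mitosis lay in these cells. Mki67, which encodes a protein coating mitotic chromosomes, had at least 5 reads in 9 TAS-Seq and 13 BD WTA cells, of which 7 and 7 had several of the genes, and these cells held 93.9% and 89.3% of its reads. Top2a, the topoisomerase that untangles sister chromosomes, had 5 reads in 14 and 25 cells, and the cells with several genes held 84.7% and 77.1% of its reads. Since a gene counts toward the choice of these cells, the shares describe the genes and test nothing.

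Birc5, the survivin subunit of the chromosomal passenger complex, reached 5 reads in 10 TAS-Seq and 9 BD WTA cells, and 64.1% and 98.7% of its reads lay in the cells with several genes. All 9 of the BD WTA cells were such cells, against 6 of the 10 in TAS-Seq. Cdk1, the kinase that drives entry into mitosis, was at 5 reads in 5 and 7 cells, with 89.4% and 93.3% of its reads in cells with several genes. Ccnb2, a B-type cyclin that binds Cdk1, was at 5 reads in 5 cells of each library, with 92.2% and 97.7%. In TAS-Seq all 5 cells with Cdk1 also had Mki67, Top2a and Birc5, and 4 of them had Ccnb2. In BD WTA only 1 of the 7 cells with Cdk1 had Ccnb2 and 2 had Mki67. So the kinase and its cyclin were read together in most such cells of one library and in few of the other, with 5 to 7 cells on each side.

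The replication genes were less alike among themselves. Rrm2, the small subunit of ribonucleotide reductase, was like the mitosis genes, with 10 and 7 cells at 5 reads and 83.9% and 92.5% of its reads in the cells with several genes. Tyms, which makes thymidylate, was at 5 reads in 14 cells of each library, with 53.8% and 34.9% of its reads there. Mcm5, a subunit of the replicative helicase, was at 5 reads in 31 and 40 cells, and 39.4% and 46.5% of its reads lay there.

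Pcna, the sliding clamp of DNA polymerases, which also serves in DNA repair, stood apart from the other genes. It was at 5 or more reads in 222 cells of the TAS-Seq library (30.3%, 27.0 to 33.8%) and 158 of the BD WTA library (22.3%, 19.3 to 25.6%), and only 17.6% and 21.6% of its reads lay in cells with several genes. Of the cells with exactly 1 of the 10 genes, 184 of 223 (82.5%) in TAS-Seq and 123 of 171 (71.9%) in BD WTA had Pcna. It was spread over the lymphocyte classes defined further on, with 27.8% of B-marker cells (23.5 to 32.5%) and 32.5% of T-marker cells (26.9 to 38.4%) in TAS-Seq, and 21.5% (17.4 to 26.1%) and 20.7% (16.1 to 25.9%) in BD WTA. The B and T intervals overlap in each library. Cells with neutrophil markers also had it, with 2 of 9 cells in TAS-Seq and 2 of 8 in BD WTA at 5 reads. Neutrophils do not divide once mature, but the markers used do not show whether these cells were mature.

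Stmn1, the microtubule-destabilising protein stathmin, lay between these patterns, at 5 reads in 35 TAS-Seq and 39 BD WTA cells with 64.6% and 71.2% of its reads in cells with several genes. It was found at 5 reads in all 13 of the TAS-Seq cells with several genes and in 12 of the 14 in BD WTA. Outside them it was in 22 and 27 cells. Without Stmn1 and Pcna, 1.23% of the TAS-Seq library and 1.69% of the BD WTA library had 3 or more of the remaining 8 genes.

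For Pcna and Stmn1 the reads may be divided with near copies. Of the 31-base words of the longest transcript, 38.0% for Pcna recur in another annotated gene, mainly its pseudogene Pcna-ps2, with 307 TAS-Seq and 234 BD WTA reads in the tables beside 5482 and 5129 of Pcna. For Stmn1 the share was 42.6%, mainly through Gm11223 with 14 and 63 reads beside 1549 and 2655. For Tyms it was 15.1% and for Rrm2 15.4%, and for the other 6 genes at most 4.09%. The levels of Pcna and Stmn1 are uncertain to that extent.

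The pooled level of most of the genes was lower in TAS-Seq. Levels are reads per 1000000 of the reads in all filtered cells (CPM), and ratios are log2 of TAS-Seq over BD WTA with 95% intervals from the read counts. Stmn1 was at 40.1 CPM in TAS-Seq (exact Poisson interval 38.2 to 42.2) and at 84.3 CPM in BD WTA (81.2 to 87.6), a log2 ratio of -1.07 (-1.16 to -0.98). Birc5 was at 6.79 CPM (5.99 to 7.67) and 14.2 CPM (12.9 to 15.6), also a log2 ratio of -1.07 (-1.29 to -0.84). These were the 2 members of 10 at least 2-fold lower in TAS-Seq, and none was at least 2-fold higher, while among the 17952 genes compared 9.93% were at least 2-fold lower and 19.6% at least 2-fold higher, with a median log2 ratio of 0.15. Of the 10 members, 9 lay below 0, as did 41.9% of the genes compared, and Tyms alone above it.

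Tyms was at 12.1 CPM (11.1 to 13.3) in TAS-Seq and at 8.29 CPM (7.32 to 9.36) in BD WTA, a log2 ratio of 0.55 (0.33 to 0.77). Mcm5 was at 23.1 and 40.4 CPM (log2 ratio -0.81), Rrm2 at 12.9 and 22.4 CPM (-0.80), Cdk1 at 5.16 and 8.10 CPM (-0.65) and Top2a at 31.6 and 48.7 CPM (-0.62). Mki67 at 26.0 and 30.2 CPM (-0.22), Ccnb2 at 5.99 and 6.99 CPM (-0.22, interval -0.50 to 0.05) and Pcna at 142.1 and 162.9 CPM (-0.20) differed least. The interval of Ccnb2 includes no difference.

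Single cells carried much of these sums, and reads of 1 molecule are not independent. The cell with most reads of a gene held from 4.10% (Pcna) to 42.9% (Ccnb2) of that gene's TAS-Seq reads, and from 6.10% (Pcna) to 43.6% (Mki67) of its BD WTA reads. Without that cell in each library the log2 ratio of Mki67 was 0.16, and with every cell weighted equally it was 0.04 for Mki67 and 0.45 for Ccnb2, so the direction for these genes was not stable.

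Detection went the other way from level. At 20000 reads per cell the TAS-Seq share of cells with at least 1 read was the larger for all 10 genes, as it was for 88.8% of the 18506 genes compared. The shares for Pcna were 38.6% in TAS-Seq (35.0 to 42.3%) and 27.3% in BD WTA (23.9 to 30.9%), and those for Birc5 4.67% (3.23 to 6.49%) and 1.86% (0.965 to 3.23%). Only for these 2 genes did the intervals of the libraries not overlap. At 5 reads, 4 of the 10 genes had the larger share in TAS-Seq (Mki67, Ccnb2, Pcna and Tyms), against 62.8% of the 11364 genes compared, and no pair of intervals was apart.

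The extra TAS-Seq detections were of few reads. With all reads kept, Top2a had reads in 80 cells of TAS-Seq and in 32 of BD WTA, of which 66 (82.5%) and 7 (21.9%) had 1 to 4 reads, and the median over cells with reads was 1 in TAS-Seq and 20.5 in BD WTA. Birc5 had reads in 61 and 16 cells, 83.6% and 43.8% of them at 1 to 4 reads. Rrm2 had reads in 31 and 9 cells, 67.7% and 22.2% of them at 1 to 4 reads. Among the cells with reads of a gene, the share at 1 to 4 reads was larger in TAS-Seq for each of the 10 genes, as it was for 88.2% of the 16001 genes with reads in at least 5 cells of each library.

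Free RNA or misassigned barcodes can give a cell a few reads of a gene it does not express. The neutrophil class, whose markers do not show maturity, was therefore read beside the lymphocytes. In TAS-Seq 3 of 9 neutrophils (33.3%, 7.49 to 70.1%; median 39316 reads per cell) had at least 1 read of a gene other than Pcna, and 180 of 406 B-marker cells (44.3%, 39.4 to 49.3%; median 42286.5 reads) had one. In BD WTA these were 1 of 8 neutrophils (12.5%, 0.316 to 52.7%; median 31056 reads) and 55 of 362 B-marker cells (15.2%, 11.7 to 19.3%; median 35819 reads). No neutrophil of either library had 5 reads of any of these 9 genes. The intervals of the neutrophil and B-marker shares overlap in each library, but with 9 and 8 neutrophils they are too wide to tell the shares apart. Whether such reads are background was therefore not decided. That 1 read of a gene was not taken as expression is a choice made for caution.

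**Figure D2:**
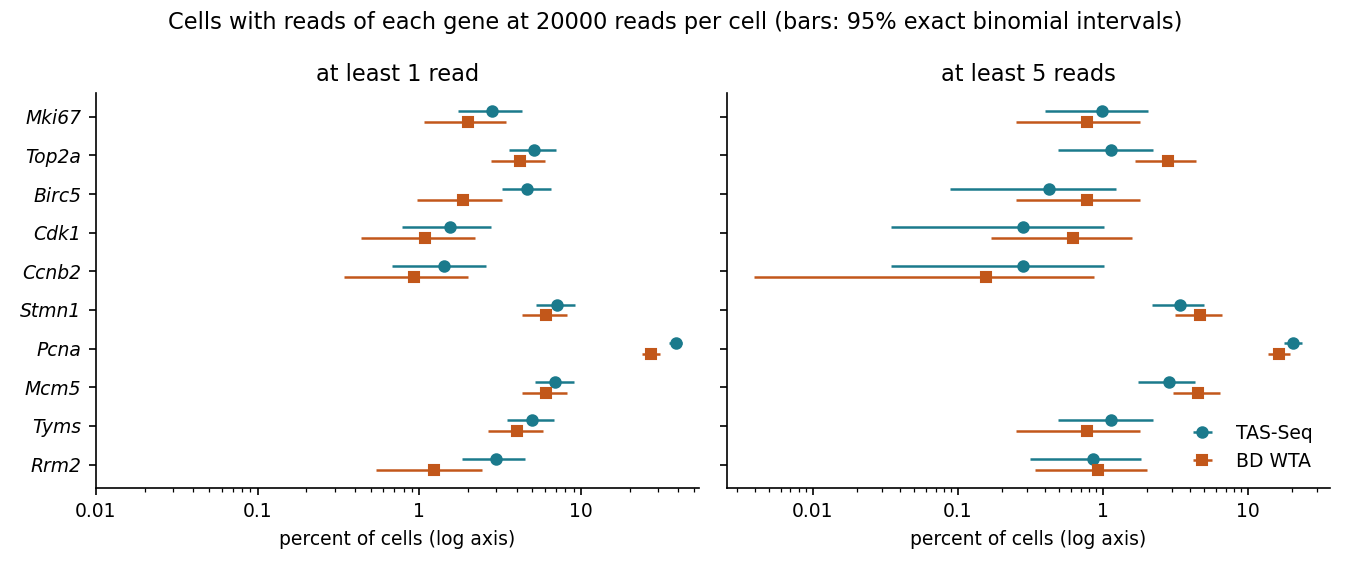
Percent of cells (log axis) with at least 1 read (left) and at least 5 reads (right) of each gene after thinning to 20000 reads per cell, in TAS-Seq (circles, 707 cells) and BD WTA (squares, 645 cells), with 95% exact binomial intervals. At 1 read every TAS-Seq point lies to the right, with Birc5 and Pcna apart, and at 5 reads all intervals overlap.

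By their markers at 5 reads, 9 of the 13 and 10 of the 14 cells with several genes were B or T lymphocytes. A cell was given the class whose fixed marker list had the largest share of its genes at 5 or more reads, with at least 2 markers, and was kept apart when a second list had at least 50% of its markers there. None of the markers is among the 10 genes. Of the 13 TAS-Seq cells, 5 had B markers (38.5%, 13.9 to 68.4%), 4 had T markers (30.8%, 9.09 to 61.4%), 2 had NK markers and 2 had markers of 2 lists. Of the 14 BD WTA cells, 6 had B markers (42.9%, 17.7 to 71.1%), 4 had T markers (28.6%, 8.39 to 58.1%), 2 had markers of 2 lists, 1 had monocyte, macrophage or dendritic markers and 1 had no class. Among all filtered cells, B-marker cells made up 55.5% and 51.1% and T-marker cells 37.0% and 39.5%, which lie within the intervals of the cells with several genes. With 1 read taken as enough for a marker, the TAS-Seq shares were 7.69% B and 0% T, so the classes of these cells depend on the minimum there, while the BD WTA shares were 42.9% and 28.6% as before.

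Read the other way, 5 of 406 B-marker cells (1.23%, 0.401 to 2.85%) and 4 of 271 T-marker cells (1.48%, 0.404 to 3.74%) in TAS-Seq had several of the genes. In BD WTA these were 6 of 362 (1.66%, 0.611 to 3.57%) and 4 of 280 (1.43%, 0.391 to 3.62%). The shares of the B and T classes cannot be told apart at these numbers in either library. Of the NK-marker cells, 2 of 18 in TAS-Seq (11.1%, 1.38 to 34.7%) and 0 of 24 in BD WTA (0 to 14.2%) had several genes. A count of 0 of 24 allows a share of up to 12.5% by the limit of 3 counts. The NK intervals overlap those of the B and T classes.

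Single cells, named here as examples, show that the classes do not all stand equally firm. One NK-marker cell of TAS-Seq had 218 reads of Mki67, 211 of Top2a and 91 of Rrm2 beside 1893 of the granzyme gene Gzma and 264 of the receptor gene Klre1. The other had 77 reads of Mki67 and 186 of Pcna beside 483 of Gzma and 231 of Klre1. A T-marker cell of TAS-Seq had 424 reads of Top2a and 158 of Mki67 with 75 of Cd8a and 139 of Cd8b1, the genes of the CD8 coreceptor. In BD WTA the cell with all 10 genes had B markers, with 178 reads of Mki67, 313 of Pcna and 231 of Rrm2 beside 528 of Cd79a and 381 of Ms4a1. Each of these cells combined high reads of the proliferation genes with high reads of its lineage genes, but each also had reads of markers of another list. The second NK-marker cell had 80 reads of Lck and 40 of Cd22. In the T-marker cell there were 24 reads of Ighd and 11 of Cd22. Another BD WTA cell was classed as B on 35 reads of Cd79b and 14 of Ms4a1 alone.

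In all, 4 of these cells had markers of 2 lists. The TAS-Seq cell with all 10 genes had 6 of 6 T markers with 913 reads and 4 of 6 B markers with 36 reads. A second TAS-Seq cell had 5 of 6 B markers with 271 reads and 4 of 7 erythroid markers, the haemoglobin genes, with 277 reads. In BD WTA one cell had 6 of 6 B markers with 659 reads and 5 of 6 T markers with 419 reads, and another had 5 of 5 NK markers with 285 reads and 3 of 6 T markers with 154 reads. Cells with markers of 2 lists made up 15.4% and 14.3% of the cells with several genes and 1.11% and 0.865% of the other cells, and whether they hold a pair of cells was not tested. The program Scrublet called none of the 13 and none of the 14 as doublets, and 1 and 6 of the other cells. The BD WTA cell without a class had 13410 reads and 808 detected genes with 0.0149% mitochondrial reads, against a median of 7.66% in the other cells of that library, and had 21 reads of Top2a and 43 of Birc5.

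Replication and mitosis genes were read together in most of these cells. At 5 reads, 9 of the 13 cells from TAS-Seq and 13 of the 14 from BD WTA had at least 1 gene of each group, 4 TAS-Seq cells had replication genes without any of mitosis, and 1 BD WTA cell had mitosis genes without any of replication. The cells were chosen by these same genes. Pcna, counted here as replication, was at 5 reads in 13 of the 13 and 13 of the 14. These counts therefore describe the choice and test nothing. Mki67 itself was under 5 reads in 6 of the 13 and 7 of the 14 cells, so a count resting on it alone would leave out about as many cells as it takes in. Reads of the 5 mitosis genes exceeded those of the 4 replication genes in 4 TAS-Seq and 8 BD WTA cells.

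In TAS-Seq the balance between the groups could also be seen in genes that had no part in the choice of cells. In a TAS-Seq cell with 777 reads of mitosis and 59 of replication members, the list of other spindle genes summed to 12989 CPM and the licensing, fork and nucleotide lists to 1475 CPM. In one with 94 and 365 reads, the same sums were 1670 and 8771 CPM. The spindle sum exceeded the replication sum in 3 of the 4 TAS-Seq cells with more mitosis reads and in 0 of the other 9, and in 4 of the 8 and 1 of the other 6 BD WTA cells.

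**Figure D3:**
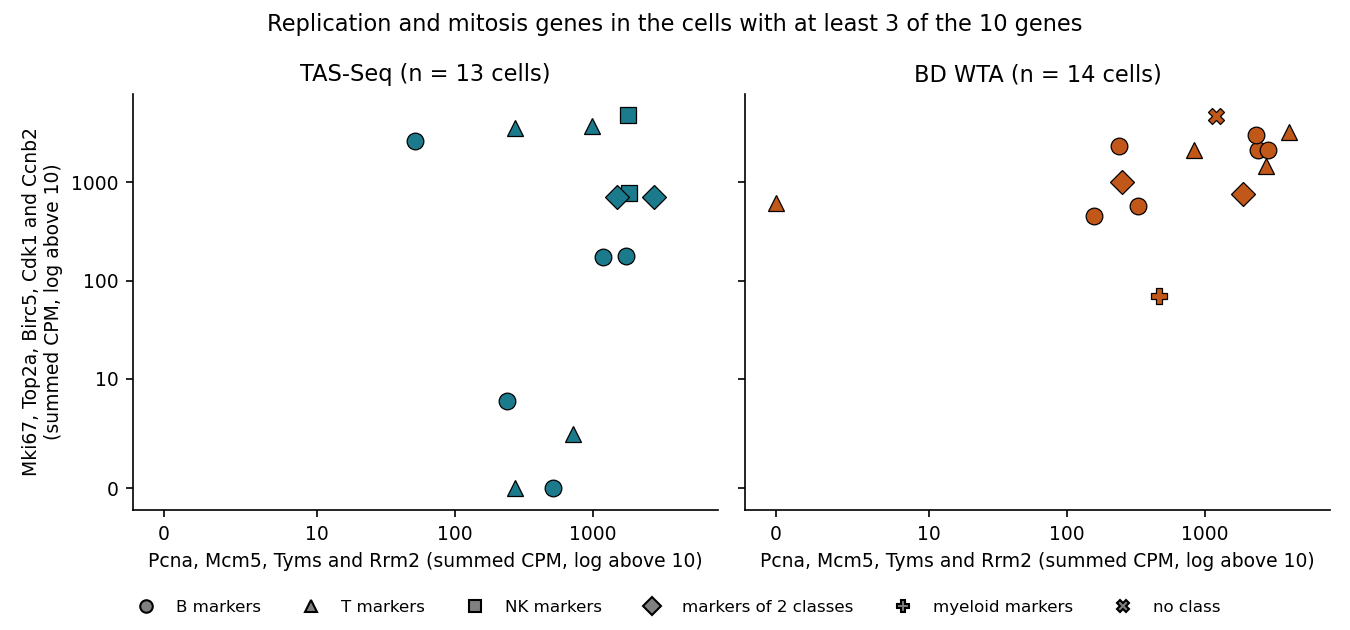
Summed level of Mki67, Top2a, Birc5, Cdk1 and Ccnb2 against that of Pcna, Mcm5, Tyms and Rrm2 (CPM, both axes log above 10) in the 13 TAS-Seq cells (left) and 14 BD WTA cells (right) with at least 3 of the 10 genes, with symbols for the class of the cell. Most points lie high on both axes, 4 TAS-Seq cells lie at the bottom with almost no reads of mitosis genes, and 1 BD WTA cell lies at 0 replication reads.

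Pooled over the same cells, other cell-cycle genes were higher. Across 6 lists of 132 genes outside the 10, 131 were measured in each library, and pooled CPM in the cells with several genes was at least 2-fold that of the other cells for 113 genes in TAS-Seq, with 1 at least 2-fold lower. Over all genes outside the 10 in that contrast, 13.6% were at least 2-fold higher and 22.6% at least 2-fold lower. In BD WTA 107 of the genes were higher and 5 lower, against 15.9% and 24.8% of all genes. The median log2 ratio over the lists was 3.09 and 3.07, against 0 over all genes, of which 17.7% and 18.2% were at 0 on one side with nothing bounded and were set at no difference, and -0.18 and -0.17 over the genes of at least 10 CPM. With all genes of the lists at 20000 reads per cell, 107 and 100 were higher. Not each cell shared in this. Spindle genes at 5 reads numbered 2 to 33 per cell in TAS-Seq (median 10) and 1 to 29 in BD WTA (median 5.5). The medians in the other cells were 1 and 0. A TAS-Seq B-marker cell with 3 of the genes had 359.2 CPM of spindle genes. A BD WTA cell with monocyte, macrophage or dendritic markers had 103.5 CPM. The pooled spindle sums of the other cells were 318.5 and 332.4 CPM.

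By role, 39 of 41 spindle, kinetochore and cytokinesis genes were higher in TAS-Seq and 36 of 40 in BD WTA, with medians of 4.76 and 4.14 on the log2 scale, and 36 were higher in both. Tpx2, which targets Aurora A to the spindle, was at 212.5 CPM in these cells and 3.98 CPM in the others in TAS-Seq (log2 ratio 5.74) and at 155.8 and 1.25 CPM in BD WTA (6.97). Nusap1, a microtubule-binding protein of the spindle, was at 196.4 and 1.42 CPM (7.11) and at 183.4 and 0.943 CPM (7.60). Ube2c, the ubiquitin-conjugating enzyme of the anaphase-promoting complex, had log2 ratios of 6.07 and 5.84, and Cenpa, the centromeric histone H3 variant, of 2.80 and 2.31.

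Of the MCM helicase and origin licensing genes, 13 of 15 were higher in TAS-Seq and 14 of 16 in BD WTA, with medians of 3.45 and 2.90. Mcm3, a helicase subunit, was at 273.6 CPM against 25.1 CPM in TAS-Seq (log2 ratio 3.45) and at 245.8 against 20.9 CPM in BD WTA (3.56). Its partners Mcm4, Mcm6 and Mcm7 had log2 ratios of 2.12, 3.63 and 3.19 in TAS-Seq and of 2.93, 1.94 and 2.87 in BD WTA. The DNA polymerase, clamp loader and fork list had 19 and 16 of 22 genes higher, with medians of 1.98 and 1.86. In it Lig1, the ligase that joins Okazaki fragments, had log2 ratios of 3.59 and 4.49, Uhrf1, which brings the maintenance methyltransferase to new DNA, of 4.87 and 4.55, that methyltransferase, Dnmt1, of 2.29 and 1.68, and Rfc2, a clamp loader subunit, of 1.45 and 1.68.

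Nucleotide synthesis had 9 and 8 of 12 genes higher (medians 1.69 and 1.54), with Rrm1, the large subunit of ribonucleotide reductase, at log2 ratios of 2.78 and 3.81, Dut, which removes dUTP, at 3.49 and 3.64, and Tk1, the S-phase thymidine kinase, at 2.88 and 3.95. Paics, of purine synthesis, was at 1.24 and 1.69. Chromosome structure and chromatin genes of dividing cells were higher in 17 of 17 and 16 of 17 (medians 2.66 and 2.98). There Hmgb2, a chromatin protein, was at 2506 CPM against 293.8 CPM in TAS-Seq and at 1415 against 168.2 CPM in BD WTA, log2 ratios of 3.09 and 3.07, and it was at 5 reads in 12 of 13 and 13 of 14 of these cells. The histone variant gene H2az1 had log2 ratios of 2.57 and 1.81, and the tubulin genes Tubb5 of 2.20 and 1.75 and Tuba1b of 2.27 and 2.74. Hmgb2, H2az1, Tubb5 and Tuba1b were each also at 5 reads in 197 to 369 of the other cells of a library. They mark these cells by level and not by presence.

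Cyclins, CDKs and their regulators were the most mixed, with 16 of 24 higher and 1 lower in TAS-Seq and 17 higher and 4 lower in BD WTA (medians 3.22 and 2.33). Cks2, a CDK-binding subunit of mitosis, had log2 ratios of 3.05 and 3.29, and Cdk4, the G1 kinase, of 1.51 and 1.63. The G1 cyclin genes differed from these, since Ccnd3 was at 0.75 and 1.01 and Ccnd2 at 0.46 in TAS-Seq and at -1.51 in BD WTA. Ccnd1 had no reads in the cells with several genes of either library, against 32.5 and 11.4 CPM in the other cells, but only 12 of the 719 and 8 of the 694 other cells had 5 reads of it, so its ratio rests on few cells. It is named here after its values were seen, as is Ccnb1, the main mitotic cyclin, at 28.0 CPM against 0.982 CPM in TAS-Seq and at 1.12 against 4.92 CPM in BD WTA, where it had 2 reads in these cells.

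The list of quiescence genes and cell-cycle inhibitors went the opposite way for the most part. Of its 16 genes, 10 were at least 2-fold lower and 1 higher in TAS-Seq (median log2 ratio -1.38). In BD WTA 7 were lower and 2 higher (-0.79), and 7 were lower and 1 higher in both. Over all genes outside the 10, 22.6% were at least 2-fold lower in TAS-Seq and 24.8% in BD WTA. Over the genes of at least 10 CPM these shares were 26.4% and 28.7%. Klf2, a factor that maintains resting lymphocytes, was at 315.6 CPM against 955 CPM in TAS-Seq (log2 ratio -1.60) and at 103.5 against 1061 CPM in BD WTA (-3.36). Btg1, an antiproliferative gene, was at 301.1 against 1255 CPM (-2.06) and at 163.7 against 689 CPM (-2.07). Klf6 (-0.89 and -0.20) and Foxp1 (-0.83 and -0.64) did not reach 2-fold. With cells of at least 2 of the 10 genes in place of 3, only 3 genes of this list were lower in each library.

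**Figure D4:**
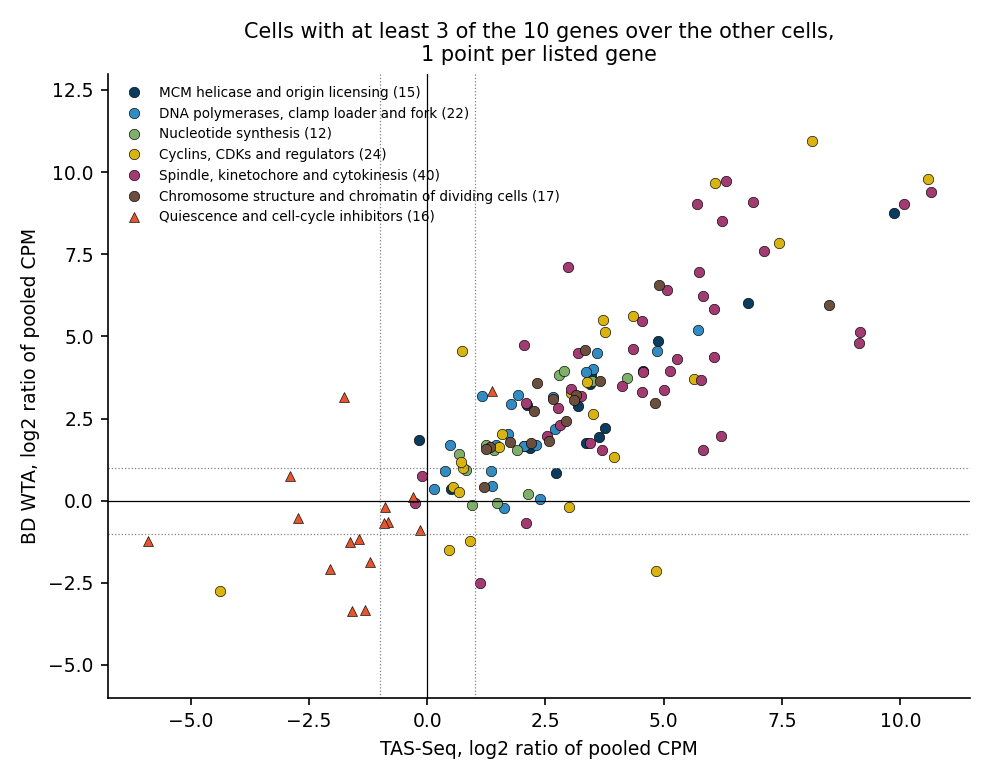
Log2 ratio of pooled CPM in the cells with at least 3 of the 10 genes over the other cells, TAS-Seq (horizontal) against BD WTA (vertical), 1 point for each listed gene measured in both libraries, coloured by list, with dotted lines at 2-fold. Most circles of the 6 cell-cycle lists lie above 2-fold on both axes, and most triangles of the quiescence list lie below 0 on both.

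Cells with 1 or 2 of the genes were close to cells with none in these lists, though not equal in all. This group largely describes Pcna, the gene present in 82.5% and 71.9% of the cells with exactly 1. At 20000 reads per cell, the spindle list summed to 299.8 CPM in 446 TAS-Seq cells with none of the 10 genes, to 347.8 CPM in 248 cells with 1 or 2, and to 3535 CPM in 13 cells with 3 or more. In BD WTA the sums were 316.8 CPM in 438 cells, 329.1 CPM in 194 cells and 3354 CPM in 13 cells. The chromatin list was at 1721, 1701 and 9169 CPM in TAS-Seq and at 1727, 1798 and 7327 CPM in BD WTA. Across the 6 cell-cycle lists and both libraries, the sum in cells with 1 or 2 genes was 0.961 to 1.201 times that in cells with none, and the sum in cells with 3 or more was 2.72 to 11.8 times. For some lists the intervals of none and of 1 or 2 genes were apart and for others they overlapped. In TAS-Seq the cyclin list was at 588.8 CPM (573 to 604.9) and 706.9 CPM (683.6 to 730.6), and the MCM list at 234.4 CPM (224.5 to 244.7) and 232.1 CPM (218.8 to 245.9). For the quiescence list these ratios were 0.958 and 0.949 with 1 or 2 genes and 0.347 and 0.456 with 3 or more. This comparison was added after the data had been seen.

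**Figure D5:**
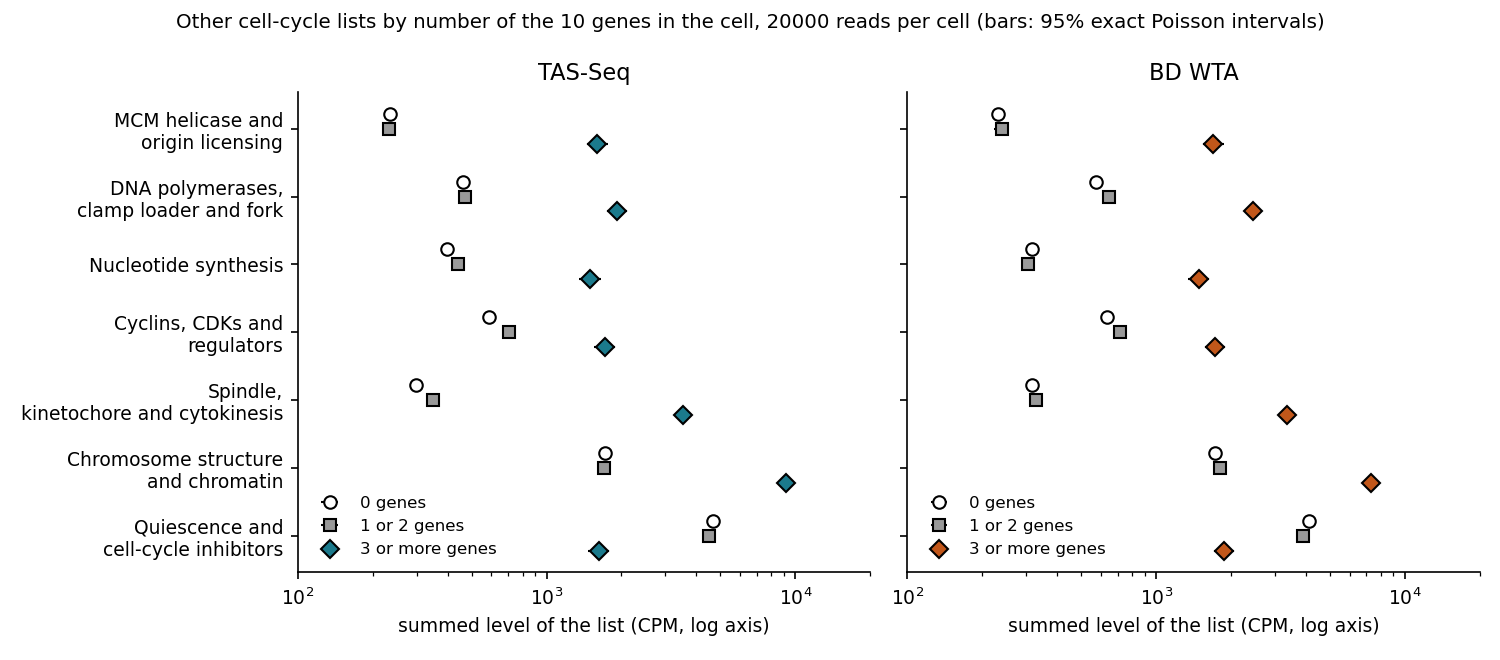
Summed level (CPM, log axis) of each cell-cycle list in cells with 0 (white circles), 1 or 2 (grey squares) and 3 or more (coloured diamonds) of the 10 proliferation genes at 5 reads before thinning, with the sums taken at 20000 reads per cell, for TAS-Seq (left) and BD WTA (right), with 95% exact Poisson intervals mostly smaller than the symbols. Squares lie close to circles in every list, and diamonds lie to the right in the 6 cell-cycle lists and to the left in the quiescence list.

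The cells with several genes also had more RNA reads. Their median was 132369 reads against 46283 in the other TAS-Seq cells and 115429 against 38107 in the other BD WTA cells, 2.86 and 3.03 times as many. Thinned to 20000 reads they still had medians of 3520 against 2354 and of 2743 against 1538 detected genes. Depth raises the chance that a gene reaches 5 reads, and its part in the choice of these cells was not tested apart from the thinned counts given above. The median mitochondrial share was 5.23% against 5.63% in TAS-Seq and 7.67% against 7.66% in BD WTA.

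No list of activated-state markers was higher in the cells with several genes of both libraries. Genes of activated or effector T cells summed to 1204 CPM against 813.3 CPM in TAS-Seq and to 407.3 against 927.3 CPM in BD WTA. In TAS-Seq Ccl5 had 1314 reads in these cells, with 615 and 629 in the NK-marker cells. Over all genes compared, 13.6% were at least 2-fold higher and 22.6% lower in TAS-Seq, and 15.9% and 24.8% in BD WTA. Of the 11 T-cell genes, 3 were at least 2-fold higher and 4 lower in TAS-Seq, and 1 higher and 7 lower in BD WTA. Among the 3, Gzmb had 102 of its 106 reads in an NK-marker cell. With 4 T-marker cells in each library, such counts cannot show whether the T cells were activated. Of the germinal-centre B genes measured, 2 of 5 were higher and 2 lower in TAS-Seq, and 0 were higher and 2 lower in BD WTA. The plasma cell list had 1 higher and 3 lower of 6 genes in TAS-Seq and 0 higher and 3 lower in BD WTA. NK markers summed to 1712 CPM against 320.2 CPM in TAS-Seq, where 2 of the 13 cells had NK markers, and to 161.4 against 387 CPM in BD WTA. Neutrophil markers summed to 16.6 CPM against 1267 CPM and to 0.562 against 687.6 CPM. The other cells include the neutrophils themselves. In TAS-Seq a few reads of neutrophil genes were present in the cells with several genes, with S100a9 in 11 and S100a8 in 8 of the 13 cells (18 and 14 reads in all, under 5 in each cell).

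The genes whose pattern over cells was most like that of the 10 were cell-cycle genes for the most part. Likeness was the Pearson correlation, over the cells of a library, of a gene's log2(CPM + 1) with the mean of the 10 genes, taken as the lower of the values of the libraries over 732 and 708 cells, among 11403 genes with 5 reads in at least 5 cells of each. The first 10 were Ccna2, Tpx2, Nusap1, Cks1b, Ncapg, Tcf19, Pclaf, Aurkb, Cdc20 and Pcna-ps2, at correlations from 0.53 to 0.34. Of these, 7 are in the lists above. Ccna2, the cyclin of S phase and G2, was at 5 reads in 5 cells of each library, and Pclaf, a Pcna-binding factor, in 16 and 20 cells. Since the ranking uses the 10 genes themselves, the overlap of such genes with the cells with several genes is no separate finding. Cells of one library share its depth, and Pcna-ps2 shares sequence with Pcna, so these correlations are a description.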

How the data were processed

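Spleen cells of 1 pool were measured in 1 TAS-Seq and 1 BD WTA library. The deposited tables hold counts, whole reads per gene and barcode that the authors made without molecular identifiers or normalization. The study's methods give cutadapt, bowtie2 on the forward strand against the Ensembl cDNA and non-coding RNA of GRCm38, and DropletUtils, and the submitters' processing notes name cutadapt 2.10, Bowtie2 2.4.2 and R 3.6.3. They also describe a distribution-based error correction that subtracts background reads from TAS-Seq matrices. Whether it was applied to these tables is not given in the sources used here, and it would change low read values. Mapping to transcripts can divide reads among near copies.

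From these counts, cells with at least 500 genes and at most 25% mitochondrial reads were kept (4 TAS-Seq and 8 BD WTA barcodes were removed), leaving 38583235 and 31481527 reads. Reads were thinned to 20000 per cell with a fixed seed. Intervals are 95% exact binomial or exact Poisson. Ratios used genes with at least 10 reads in the compared cells. A gene at 0 on one side was set against a floor of 3 reads, or at no difference where that bounds nothing, a rule changed after the first output. Python 3.11.15, scipy 1.17.1, scanpy 1.11.5 (Scrublet, expected rate 0.05), R 4.3.3 and edgeR 4.0.16 (TMM) were used, and scripts were tested on simulated data. Annotation was GENCODE M21, older than the release mapped to. The list symbols H2afz and H2afx were matched by RefSeq synonyms.

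No test was run, since each method has 1 library. The 10 genes and all lists were chosen with earlier results of these data known. The named genes are the 10, at most 4 per list with the highest level in the cells with several genes, and the 10 most alike. The class rule was set after marker reads of these cells had been printed, and the promoter letters were narrowed after a first look (TTTAAA was first counted with TTTGAA, and 2 further E2F forms gave 4.45% of windows and 2 of 9 genes).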

Additional observations from a re-analysis of the deposited data

How the results depend on the processing

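No paired analysis was possible because only 1 library was made by each method. Of 65 recomputed main results, 55 kept their direction and stayed within their interval or within 1.5 times the count. The number of genes detected more widely in TAS-Seq was 4 rather than 10 at a minimum of 5 reads, where the differences turned to -1.67 percentage points for Mcm5, -1.66 for Top2a, -1.26 for Stmn1, -0.351 for Birc5, -0.337 for Cdk1 and -0.0816 for Rrm2. At 10000 reads per cell that of Stmn1 was -0.463. The share of cells with several genes was 5.87% in TAS-Seq and 3.53% in BD WTA at 1 read per gene, and 5.33% and 6.21% with at least 2 genes. At 1 read of a class marker, 7.69% of the TAS-Seq cells with several genes had B markers and 0% T markers. Lower quiescence genes numbered 3 in TAS-Seq and 3 in BD WTA with cells of at least 2 genes, and 1 in TAS-Seq with at least 3 genes at 1 read. The 6 lists kept 98 to 115 higher genes in TAS-Seq and 94 to 112 in BD WTA under every alternative run, among them leaving out cells with markers of 2 lists, which was chosen after seeing the data. Of 70 values for single genes 35 stayed within their interval. The causes were not tested. With 13 and 14 cells, shares by class have wide intervals, and reads without molecular identifiers make the true error larger than the intervals given.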
